A study of Mus musculus with 34 samples.

Results

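Ptgs1, Hpgds, Ltc4s and Alox5ap, 4 enzymes and enzyme partners that turn arachidonic acid into prostanoids or leukotrienes, were followed in macrophages sorted from the colonic lamina propria of mice that lacked or kept the interleukin-10 receptor. They were picked by symbol and are 4 of the 9851 genes listed in the 3 deposited expression tables; each table lists all 4. Arachidonic acid released from membranes enters one of 2 branches. In the prostanoid branch, cyclooxygenase 1 (Ptgs1), which most cells carry constitutively, and the inducible cyclooxygenase 2 (Ptgs2) make prostaglandin H2, which hematopoietic prostaglandin D synthase (Hpgds) turns into prostaglandin D2 and thromboxane synthase (Tbxas1) into thromboxane. In the leukotriene branch, 5-lipoxygenase (Alox5) works with its activating protein FLAP (Alox5ap) to make leukotriene A4, which leukotriene C4 synthase (Ltc4s) joins to glutathione and leukotriene A4 hydrolase (Lta4h) turns into leukotriene B4. Macrophages, mast cells and other myeloid cells are known to carry both branches. Interleukin-10 is a cytokine that restrains macrophage activation in the gut.

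All mice were C57BL/6, and every library came from cells with the surface phenotype CD45+ CD11b+ CD11c-intermediate CD64+ Ly6c- CD103-. The first table holds 3 libraries labelled CXhet and 3 labelled IL10R, untreated, from mice of 6 to 7 weeks. The second, a rescue table, holds mice of the same age: 2 CX libraries and 5 5C5_IL10R libraries without treatment, 4 untreated 5C5_IL10R_P19 libraries, 4 5C5_IL10R_abx libraries and 3 IL10R_littermate_abx libraries, the last 2 groups given antibiotics in the drinking water. The third, a neutrophil depletion table, holds bone marrow chimeras at 4 weeks after chimerism, with 4 wt, 3 ko_igg and 3 ko_ly6g libraries. For it the titles were followed, because the treatment label names the anti-Ly6g antibody for every library, wt and ko_igg included. The series title names IL-10Rα-deficient gut macrophages and interleukin-23, of which p19 is a subunit. The labels used here do not give the alleles, the Cre driver, what 5C5 and CX stand for, or the genotype of the littermates. Nor is it stated whether 1 group's libraries are separate mice, so the p-values measure the spread between libraries, which may be technical.

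The values are normalized signals, read numbers that carry 1 scaling factor for each library, with no correction for gene length, so levels are compared between groups within a table and never between genes. The libraries held 1458726 to 2487074 recovered reads in the first table, 747046 to 2775974 in the rescue table and 1028567 to 4525047 in the 8 of 10 neutrophil depletion libraries where they could be recovered. Il10ra was at 371 to 689 in CXhet, but at 9.26, 361 and 65.9 in the 3 IL10R libraries, so the library labelled IL10R 2 goes against its label. In the rescue table Il10ra was at 1.70 to 31.2 in the 3 receptor-deficient groups against 138 to 284 in CX and the littermates, and in the third at 32.2 to 111 in both ko groups against 247 to 827 in wt. The library wt_1 stood apart from the other wt libraries, with a core macrophage marker level (geometric mean) of 5357 against 1619 to 2350. So did ko_ly6g_5 in its group, at 583 against 1678 and 1691, and it had the lowest Ptgs1 and Hpgds of the ko_ly6g libraries. Il23a, the p19 gene, is listed in the first table, where IL10R libraries had 45.9 to 58.2 and CXhet libraries 1.39 to 10.3, but not in the rescue table, so the P19 label was not checked. Of 11 core macrophage markers, 9 are listed in the rescue table, among them Csf1r, Cx3cr1 and C1qa. Their summed level was 11166 to 16120 in 5C5_IL10R, 13983 to 22404 in 5C5_IL10R_P19, 26751 to 27717 in CX, 34894 to 44327 in 5C5_IL10R_abx and 39577 to 44547 in the antibiotic-treated littermates, while 14 of 14 epithelial markers made up 1.43% to 1.91% of all signal in the untreated groups and 0.263% to 0.480% in the antibiotic-treated ones. Of 13 mast cell and basophil markers, 0 are listed in the rescue table. In such sorted bulk samples, fewer cells of a type and less RNA per cell cannot be told apart.

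The promoters of 3 of the 4 genes, all but Alox5ap, were matched in the RefSeq promoter table on GRCm38.p6, another build than the mm9 named in the submitters' processing notes. They are shown because Ptgs1, Hpgds and Ltc4s were lower together in the IL10R, 5C5_IL10R and ko_igg macrophages, each against its controls. Each window runs from 250 bases before to 50 after the gene's start, 5′ to 3′ on the gene's strand, and capitals mark GAGGAA, the core letters of the binding motif of PU.1, a factor that macrophages need, or its reverse complement.
Ptgs1, chr2:36230176-36230475, plus strand: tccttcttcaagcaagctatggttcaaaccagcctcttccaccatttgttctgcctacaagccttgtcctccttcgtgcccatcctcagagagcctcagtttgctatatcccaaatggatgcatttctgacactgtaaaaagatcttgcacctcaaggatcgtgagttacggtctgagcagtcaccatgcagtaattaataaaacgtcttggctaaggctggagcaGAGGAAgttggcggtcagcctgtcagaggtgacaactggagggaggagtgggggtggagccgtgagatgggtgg
Hpgds, chr6:65144681-65144980, minus strand: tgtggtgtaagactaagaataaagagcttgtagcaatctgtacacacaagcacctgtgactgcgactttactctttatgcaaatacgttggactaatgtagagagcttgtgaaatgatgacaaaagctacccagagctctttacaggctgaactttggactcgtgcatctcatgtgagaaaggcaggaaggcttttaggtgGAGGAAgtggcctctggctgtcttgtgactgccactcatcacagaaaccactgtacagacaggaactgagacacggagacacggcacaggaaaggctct
Ltc4s, chr11:50238483-50238782, minus strand: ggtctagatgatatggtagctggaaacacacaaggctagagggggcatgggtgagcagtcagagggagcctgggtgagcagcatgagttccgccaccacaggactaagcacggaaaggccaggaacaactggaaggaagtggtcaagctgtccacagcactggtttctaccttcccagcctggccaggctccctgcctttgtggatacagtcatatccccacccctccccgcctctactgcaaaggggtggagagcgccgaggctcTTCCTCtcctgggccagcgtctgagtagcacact
Searched on both strands, GAGGAA occurs 1 time in each window, with its first base at -24 from the start in Ptgs1, at -49 in Hpgds and, on the opposite strand, at 17 in Ltc4s. It occurs in 28.3% of all 32851 promoter windows of 300 bases. The letters TTCNNNGAA of STAT factors (8.3% of windows), TGANTCA of AP-1 (7.81%) and the NF-κB motif (20.7%) have 0 matches in the 3 windows, which says only that these letters are not there.

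In the first table, which asks what loss of the interleukin-10 receptor does to untreated colonic macrophages, Ltc4s and Ptgs1 fell, Hpgds was lower without passing the test, and Alox5ap was not called. Throughout, a gene is called at a limma adjusted p under 0.05 over all genes tested, on the log2 scale of value plus pseudocount. Here 2 of the 4 enzymes were called, both lower, against 8.69% of 6766 genes in either direction and 4.12% lower.

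Ptgs1 was at 708, 504 and 474 in CXhet 1 to 3 and at 271, 111 and 200 in IL10R 1 to 3, means of 562 ± 127 and 194 ± 80.0 (SD, n = 3 each). All 3 IL10R libraries lay under the lowest CXhet library, as for 15.7% of all tested genes. The change was -1.59 (SE 0.32, 95% interval -2.32 to -0.87, limma adjusted p = 0.0184). The call is not held by every set of libraries: the adjusted p was 0.0533 without CXhet 1, 0.0703 without CXhet 2 and 0.0511 without IL10R 3, with changes of -1.42, -1.66 and -1.66. Hpgds was at 279, 143 and 132 in CXhet and at 86.0, 18.1 and 57.7 in IL10R (184 ± 81.7 against 53.9 ± 34.1). Its groups did not overlap either, and its change of -1.92 (SE 0.52) had a limma adjusted p of 0.0562. Hpgds passed the test without IL10R 1 (-2.37, adjusted p = 0.0251) and with each library scaled to the same level of core macrophage markers (-1.86, 0.00571).

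Ltc4s, the enzyme that commits leukotriene A4 to the cysteinyl leukotrienes, was at 614, 616 and 427 in CXhet and at 58.2, 46.6 and 30.6 in IL10R. The means of 552 ± 109 and 45.1 ± 13.9 differ 12.2-fold, and the highest IL10R library was far under the lowest CXhet library. The change was -3.60 (SE 0.27, limma adjusted p = 4.03e-04). In Ltc4s the library labelled IL10R 2, whose Il10ra was near the CXhet level, was as low as the other two. Alox5ap was at 508, 605 and 456 in CXhet and at 499, 1019 and 631 in IL10R, so the groups overlapped. Its change was 0.40 with an interval of -0.23 to 1.02 (adjusted p = 0.395). Without IL10R 2, the changes were -1.24 for Ptgs1 (adjusted p = 0.0190), -1.29 for Hpgds (0.0635), -3.65 for Ltc4s (4.13e-04) and 0.11 for Alox5ap (0.842). Of the 13 mast cell and basophil markers only Kit and Hdc are listed in the first table, and their summed level was 14.9 to 20.8 in CXhet and 75.4 to 118 in IL10R, higher where Ltc4s and Hpgds were lower. In the same order, 4 of 9 dendritic cell markers summed to 949 to 1590 and 597 to 935, 6 of 10 neutrophil markers to 98.7 to 229 and 524 to 873, and the T cell marker Thy1 was at 10.3 to 16.7 and 37.0 to 117. The part of these markers in the result was not tested.

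**Figure D1:**
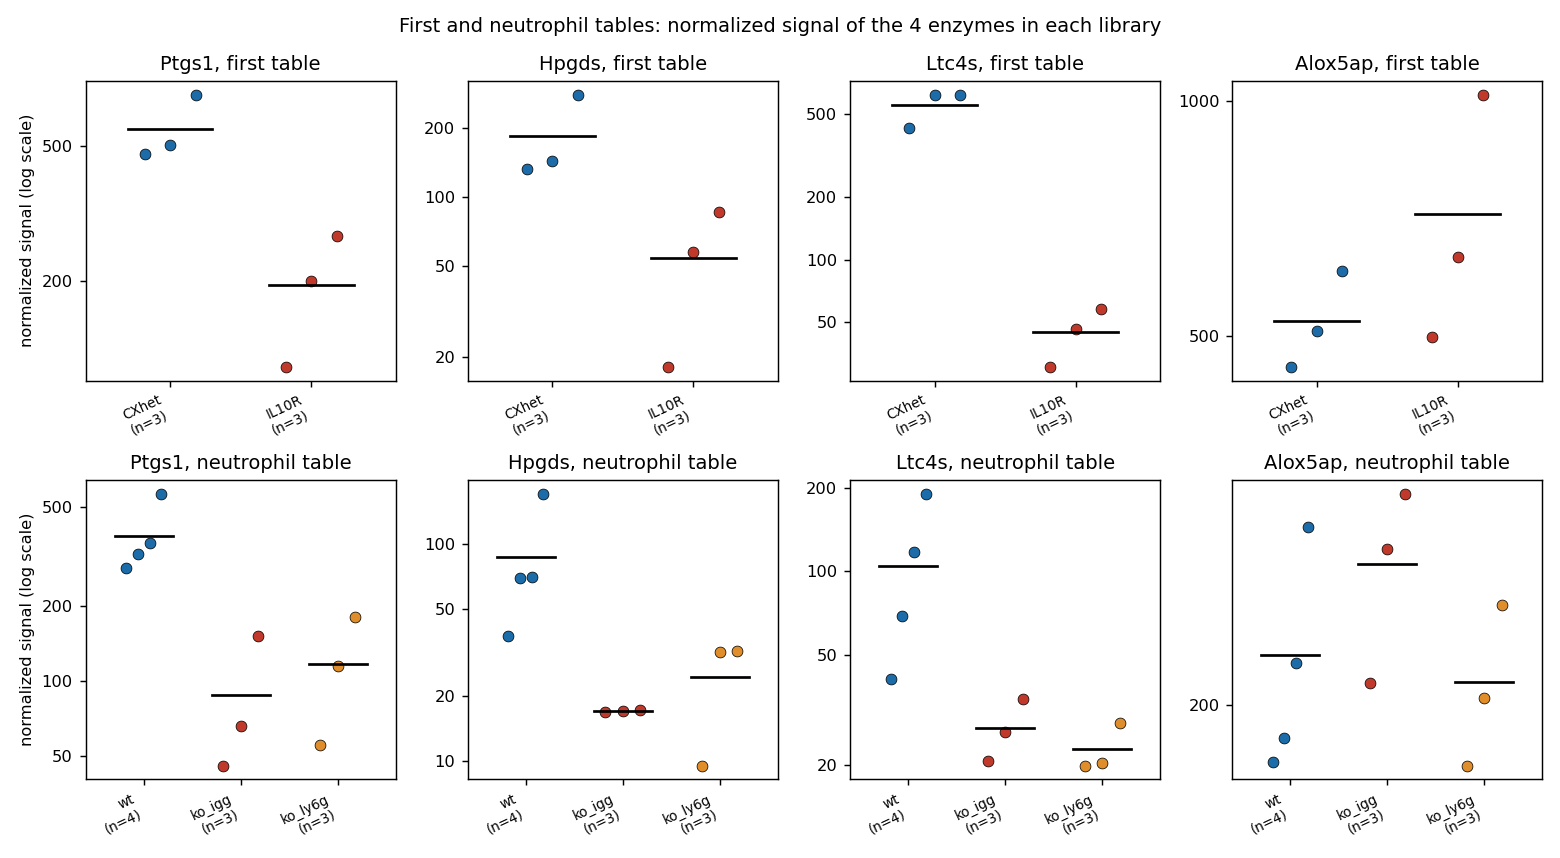
Normalized signal (log axis) of the 4 enzymes in each library of the first and the neutrophil depletion table, by group; points are libraries and bars group means. Ltc4s lay between 427 and 616 in CXhet and between 30.6 and 58.2 in IL10R, while Alox5ap overlapped between all groups of a table.

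In the rescue table the comparison of 5C5_IL10R with CX, both untreated, again had Ptgs1, Hpgds and Ltc4s lower, now all 3 past the test, and Alox5ap lower without a call. That is 3 of 4 enzymes called against 9.91% of 6612 genes, 6.03% being lower. Only 2 CX libraries stand behind the comparison.

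Ptgs1 was at 315 and 461 in CX and at 59.8, 89.2, 117, 119 and 199 in 5C5_IL10R, and the change was -1.81 (SE 0.32, limma adjusted p = 0.00307). Without CX_3 it was -1.53 with an adjusted p of 0.0590. Hpgds was at 154 and 153 in CX and at 48.1, 45.6, 53.5, 46.3 and 62.7 in 5C5_IL10R with a change of -1.58 (SE 0.30, adjusted p = 0.00389). That call rests on both CX libraries, since the adjusted p was 0.0780 without CX_1 and 0.0519 without CX_3, at nearly the same change of -1.57 and -1.58. In both genes, as in 18.3% of all tested genes, every 5C5_IL10R library was under every CX library.

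Ltc4s was at 188 and 149 in CX and at 3.90, 21.8, 39.1, 38.0 and 81.2 in 5C5_IL10R, where the lowest value stands for 3 reads. These groups did not overlap, and the change of -2.64 had a wide error (SE 0.72, limma adjusted p = 0.0288). The call was lost without CX_1 (adjusted p = 0.241), without CX_3 (0.123), without 5C5_IL10R_32 (0.0526) and with only these groups in the fit (0.163). Alox5ap was at 182 and 120 in CX and at 143, 48.7, 80.9, 91.1 and 109 in 5C5_IL10R. Its groups overlapped, and the change was -0.72 (SE 0.30, adjusted p = 0.124); without 5C5_IL10R_27 it was -0.89 and called (0.0466).

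The core macrophage markers moved with these falls. When each rescue library was scaled to the same geometric mean of the core markers, the median of all genes moved by 1.09 in this comparison, and the changes were -0.74 for Ptgs1 (adjusted p = 0.0313), -0.52 for Hpgds (0.0642), -1.61 for Ltc4s (0.0806) and, now positive, 0.34 for Alox5ap. Summed platelet signal, from Gp1bb alone, was 132 to 256 in 5C5_IL10R and 57.0 to 99.6 in CX. The neutrophil markers summed to 72.9 to 1359 in 5C5_IL10R (median 83.6) and 62.1 to 79.7 in CX. The 1359 was in 5C5_IL10R_27, which also had the lowest Ptgs1 and Ltc4s and the highest Alox5ap of its group. Lower with the enzymes, 4 of 9 dendritic cell markers summed to 246 to 301 in 5C5_IL10R and 641 to 731 in CX. The part of these markers in the result was not tested.

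**Figure D2:**
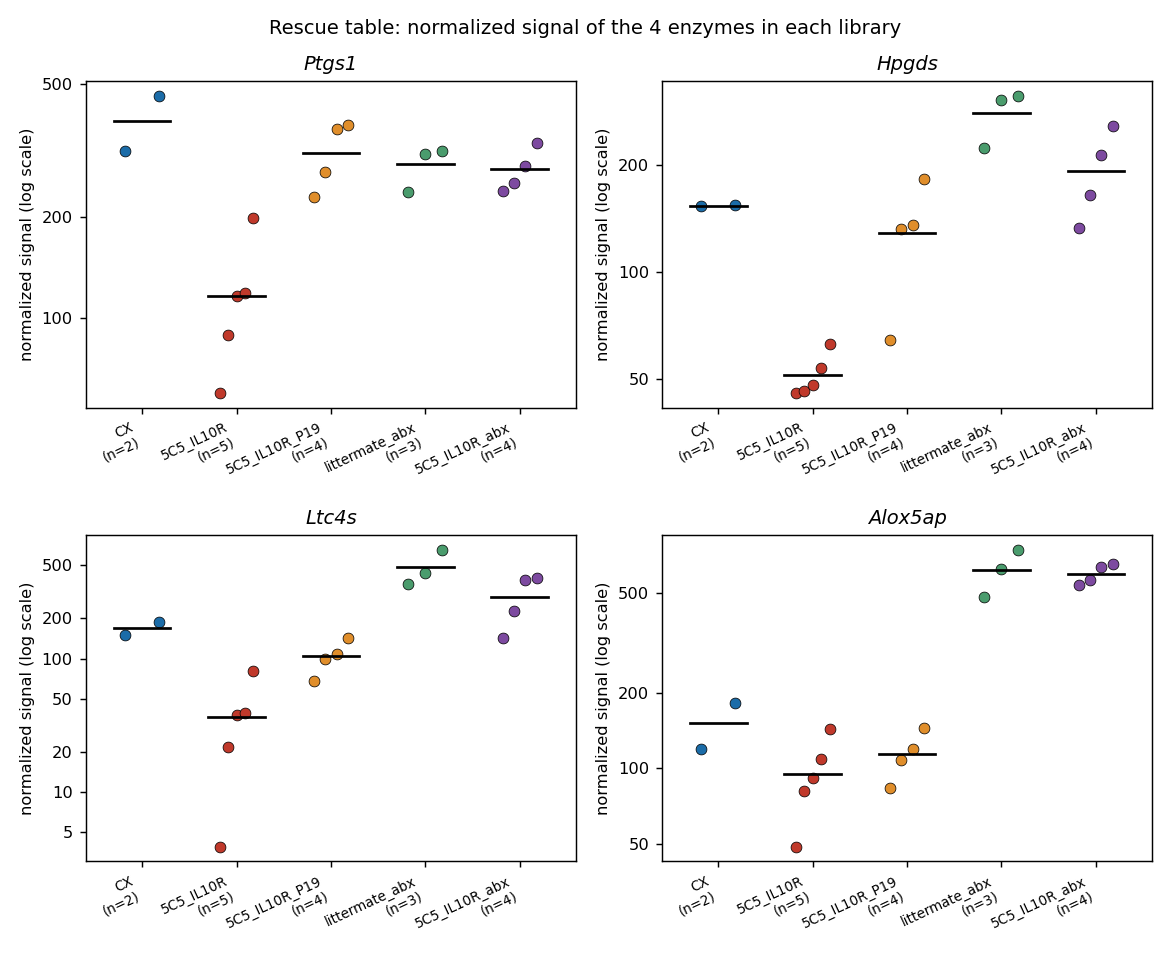
Normalized signal (log axis) of the 4 enzymes in the 18 libraries of the rescue table, by group; points are libraries and bars group means. Ptgs1, Hpgds and Ltc4s were lowest in 5C5_IL10R, and Alox5ap separated the antibiotic-treated libraries (481 to 742) from the untreated ones (48.7 to 182).

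The 5C5_IL10R_P19 macrophages ask what is left of the change when p19 is also missing, as the label is read here. Ptgs1 and Hpgds rose against 5C5_IL10R, Ltc4s was higher without a call and Alox5ap was not called. The 2 calls of 4 stand against 2.43% of all genes, 1.92% being higher. Ptgs1 was at 230, 376, 273 and 366 in 5C5_IL10R_P19, above all 5 libraries of 5C5_IL10R, as were 4.07% of genes, and its change was 1.49 (SE 0.25, limma adjusted p = 0.00668). Hpgds was at 64.3, 132, 184 and 136, the lowest of these just above the highest 5C5_IL10R library at 62.7. It rose by 1.23 (SE 0.24, adjusted p = 0.0124), but its adjusted p was 0.0615 without 5C5_IL10R_P19_106 and 0.0624 without 5C5_IL10R_P19_107, at 1.03 and 1.17.

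Ltc4s was at 67.8, 99.0, 143 and 108 in 5C5_IL10R_P19, overlapping 5C5_IL10R through 5C5_IL10R_68 at 81.2. The change was 1.92 (SE 0.58, limma adjusted p = 0.0936), and 2.32 with a call (0.0178) without 5C5_IL10R_68. Alox5ap, at 83.5, 108, 145 and 119, lay among the 5C5_IL10R values (change 0.32, adjusted p = 0.540). Scaled to the core markers, which moved the median of all genes by -0.59 here, the changes were 0.91 for Ptgs1 (adjusted p = 0.00999), 0.66 for Hpgds (0.0153), 1.37 for Ltc4s (0.0858) and -0.25 for Alox5ap. In 5C5_IL10R_P19, 4 of 9 dendritic cell markers summed to 358 to 569, platelet Gp1bb was at 93.5 to 129 and the eosinophil marker Ear2 at 22.9 to 123. In 5C5_IL10R these were at 246 to 301, 132 to 256 and 2.60 to 29.8. The part of these markers in the result was not tested.

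Against CX, 0 of the 4 enzymes were called in 5C5_IL10R_P19, where 0.0302% of genes were (limma, 2 genes; 333 at an unadjusted p under 0.05; edgeR 2 and 426). The intervals do not show equality: -1.004 to 0.36 for Ptgs1, -0.99 to 0.29 for Hpgds, -2.30 to 0.85 for Ltc4s and -1.04 to 0.24 for Alox5ap. This and the previous comparison each share libraries with the comparison of 5C5_IL10R with CX.

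With antibiotics, all 4 enzymes were higher in 5C5_IL10R_abx than in untreated 5C5_IL10R, and Alox5ap rose with the others. The background is high, since 57.8% of all genes were called in this comparison and 30.6% were higher. Ptgs1 was at 239, 254, 334 and 284 in 5C5_IL10R_abx, and the change was 1.34 (SE 0.25, limma adjusted p = 1.70e-04). Hpgds was at 165, 134, 214 and 258 (change 1.86, SE 0.24, adjusted p = 2.08e-06). Neither gene's libraries overlapped those of 5C5_IL10R, as in 22.7% of all genes.

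Ltc4s was at 390, 143, 400 and 229 in 5C5_IL10R_abx, a mean of 290.3 ± 126 (SD, n = 4) against 36.8 ± 28.7 (n = 5), and rose by 3.31 (SE 0.58, limma adjusted p = 1.14e-04). Alox5ap was at 631, 562, 648 and 537, a mean of 595 ± 53.2 against 94.5 ± 34.8, and rose by 2.72 (SE 0.24, adjusted p = 3.10e-08), so that its lowest treated library was well above the highest untreated one. All 4 calls were kept whichever single library was left out, with changes of 1.13 to 1.56 for Ptgs1, 1.70 to 2.02 for Hpgds, 2.70 to 3.71 for Ltc4s and 2.51 to 2.89 for Alox5ap.

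The core markers were higher and the epithelial markers lower in the antibiotic-treated libraries, as given above. Scaled to the core markers, which moved the median of all genes by -1.60, Alox5ap was at 1.14 (adjusted p = 4.84e-05) and Ltc4s at 1.76 (0.0204), while Hpgds was at 0.28 (0.203) and Ptgs1 at -0.24 (0.358). As a percentage of the core markers' geometric mean (mean ± SD over the libraries of a group), Alox5ap was at 11.0 ± 3.40 in 5C5_IL10R, 8.85 ± 1.39 in 5C5_IL10R_P19 and 8.43 ± 2.49 in CX, but at 23.3 ± 3.69 in 5C5_IL10R_abx and 21.0 ± 3.47 in the treated littermates. Ptgs1 on the same scale was at 13.8 ± 5.71 in 5C5_IL10R, 24.1 ± 3.08 in 5C5_IL10R_P19 and 21.7 ± 5.71 in CX. It was at 10.8 ± 1.07 in 5C5_IL10R_abx and 9.85 ± 0.923 in the treated littermates.

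**Figure D3:**
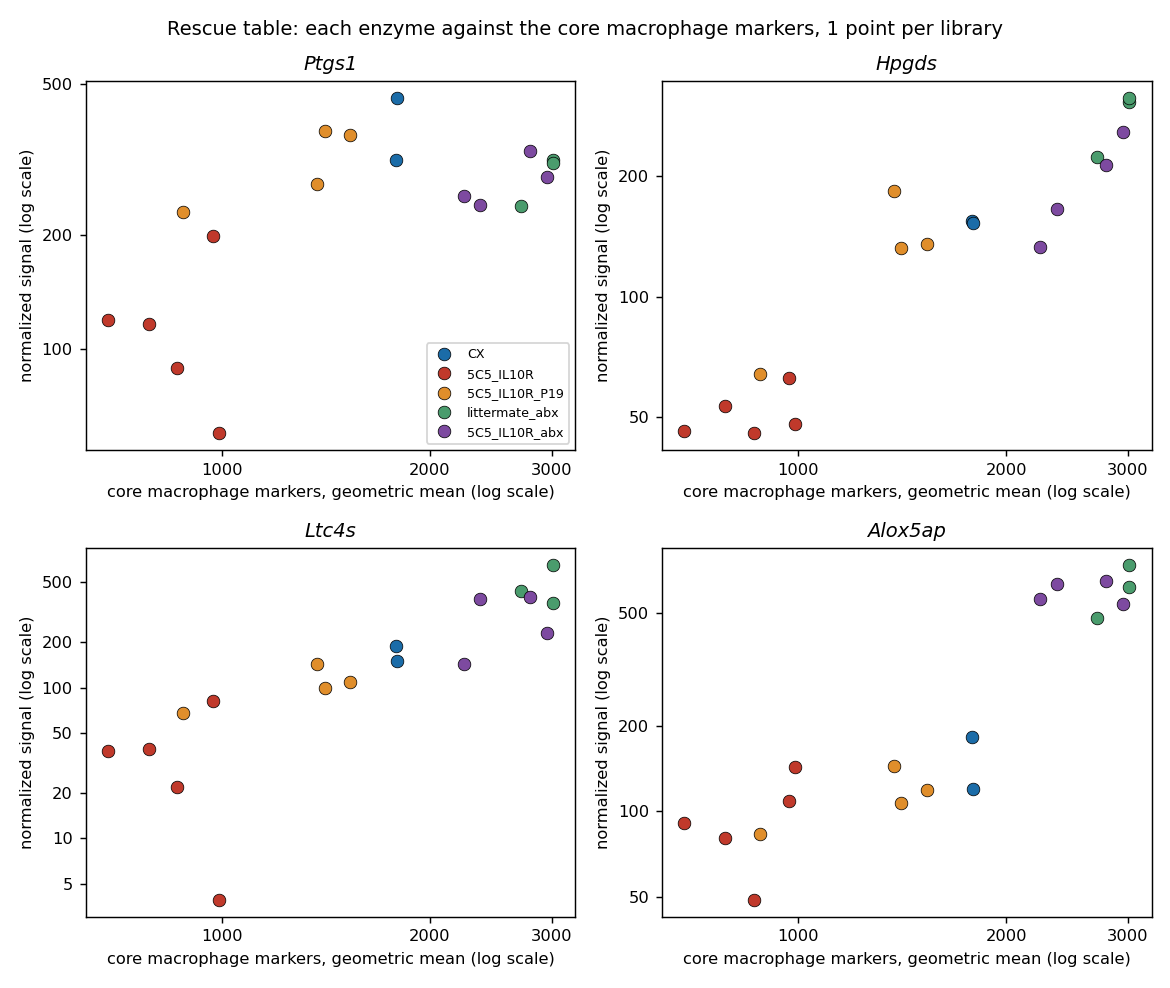
Normalized signal of each enzyme against the geometric mean of the 9 listed core macrophage markers in the 18 rescue libraries (both axes log; colours give the group). The core markers ran from 685 to 990 in 5C5_IL10R and from 2239 to 3015 in the antibiotic-treated groups, and Alox5ap stepped up between the CX and the treated libraries while Ptgs1 did not.

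Antibiotics went with a higher Alox5ap among the groups that kept Il10ra signal too. In the treated littermates it was at 618, 481 and 742, and against untreated CX the change was 2.03 (SE 0.32, limma adjusted p = 1.30e-04); with core scaling it was 1.33 (0.00158), and it stayed called without any single library (1.72 to 2.33). Here 2 of 4 enzymes were called, against 34% of all genes. The other, Hpgds, was at 306, 223 and 314 in the littermates (change 0.85, SE 0.32, adjusted p = 0.0482), a call lost without either CX library (0.167 and 0.164), without littermate_abx_490 (0.121) or littermate_abx_496 (0.126), under TMM scaling (0.0571) and with core scaling (0.15, 0.667). Ltc4s was at 361, 440 and 655, above both CX libraries (188 and 149), as in 33.1% of all tested genes. Its change of 1.48 was not called (limma adjusted p = 0.162). It was called with only these groups in the fit (1.48, 8.61e-04), and was at 0.78 (0.483) with core scaling. Ptgs1, at 316, 238 and 310, was not called (change -0.41, 0.386), but with core scaling, where the median of all genes moved by -0.68, it was at -1.11 and called (0.0104). Treatment here cannot be told apart from any other difference between the CX mice and the littermates.

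Between the antibiotic-treated groups, 5C5_IL10R_abx and the littermates, 0 of 4 enzymes were called, and 0.0302% of genes were (limma, 2 genes; 997 at an unadjusted p under 0.05; edgeR 2 and 859). Changes were -0.05 for Ptgs1 (interval -0.66 to 0.55), -0.57 for Hpgds (-1.14 to -0.01), -0.81 for Ltc4s (-2.20 to 0.57) and -0.03 for Alox5ap (-0.60 to 0.54). The control groups without and with antibiotics, CX and the littermates, carry different titles, so any other difference between them also enters the next test. The difference of 5C5_IL10R from CX minus that of 5C5_IL10R_abx from the littermates was tested as an interaction. It was -1.76 for Ptgs1 (SE 0.43, unadjusted p = 6.26e-04, limma adjusted p = 0.1004), -1.01 for Hpgds (adjusted p = 0.361), -1.83 for Ltc4s (0.546) and -0.70 for Alox5ap (0.581), with 0 of 4 called where 0.106% of genes were (limma, 7 genes; 699 at an unadjusted p under 0.05; edgeR 24 and 716). Ptgs1 alone reached a call without 5C5_IL10R_68 (-1.97, adjusted p = 0.0131). With core scaling the interaction was -0.87 for Ptgs1, -0.13 for Hpgds, -0.97 for Ltc4s and 0.19 for Alox5ap, none called, while the median of all genes moved by 0.88.

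Set against each other, 5C5_IL10R_abx and 5C5_IL10R_P19 differed in Alox5ap, which was higher with antibiotics by 2.40 (SE 0.25, limma adjusted p = 8.09e-07; 1.39 and 1.62e-05 with core scaling). Ptgs1 differed by -0.14 (adjusted p = 0.687), and by -1.16 (3.21e-04) with core scaling, which moved the median of all genes by -0.99. Hpgds was the second of the 2 called enzymes, against 48.3% of genes, at 0.62 (limma adjusted p = 0.0455). It lost that call when any 1 of 6 of the 8 libraries was left out, under TMM (0.0523) and equal-total scaling (0.152) and by edgeR (0.0754). The call was also lost with only these groups in the fit (0.121) and with core scaling (-0.38, 0.110). Ltc4s was at 1.39 (limma adjusted p = 0.0686). It was called by edgeR on recovered reads (0.0152), with a pseudocount of 5 (limma, 0.0381) and with only these groups in the fit (limma, 0.00583). With core scaling it was at 0.39 (0.620).

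Ordered by mean, Ptgs1 ran from CX (388 ± 103) through 5C5_IL10R_P19 (311 ± 71.4), the treated littermates (288 ± 43.1) and 5C5_IL10R_abx (278 ± 41.8) to 5C5_IL10R (117 ± 51.8), and the last step passed the test. The libraries of the other neighbours overlapped, and the step from 5C5_IL10R_P19 to the littermates was not tested. Alox5ap ran from the treated littermates (614 ± 131) and 5C5_IL10R_abx (595 ± 53.2), which overlapped, down a gap to CX (151 ± 44.3), 5C5_IL10R_P19 (114 ± 25.4) and 5C5_IL10R (94.5 ± 34.8), whose libraries overlapped. Hpgds and Ltc4s shared one order, from the littermates (281 ± 50.0 and 486 ± 152) through 5C5_IL10R_abx (193 ± 54.4 and 290.3 ± 126), CX (154 ± 0.816 and 169 ± 27.8) and 5C5_IL10R_P19 (129 ± 49.0 and 104.6 ± 31.0) to 5C5_IL10R (51.3 ± 7.12 and 36.8 ± 28.7). In that order, the last step passed the test for Hpgds and no neighbouring step that was tested did for Ltc4s.

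In the neutrophil depletion table, made of bone marrow chimeras, Ptgs1, Hpgds and Ltc4s were lower in ko_igg than in wt, and Alox5ap was not called. Hpgds and Ltc4s fell below the filter on low values here (the lowest 25% of genes by mean), so their values come from the fit of all 8793 listed genes. Ptgs1 was at 569, 324, 360 and 284 in wt and at 152, 66.0 and 45.5 in ko_igg. The libraries did not overlap, and the change was -2.25 (SE 0.46, limma adjusted p = 0.0138). Of the 2 enzymes tested 1 was called, against 9.19% of genes. The call was lost without ko_igg_16 (-2.14, 0.0668) or ko_igg_18 (-1.87, 0.0535), with core scaling (-1.20, 0.108; median of all genes moved by 1.13) and by edgeR on recovered reads, which leaves out ko_igg_16 and wt_3 (-2.04, 0.185).

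Hpgds was at 170, 37.6, 70.4 and 69.2 in wt and at 16.9, 17.2 and 17.1 in ko_igg (change without the filter -2.07, SE 0.52, limma adjusted p = 0.0332). Ltc4s was at 190.5, 68.7, 117 and 40.9 in wt and at 34.7, 20.7 and 26.2 in ko_igg (change without the filter -1.71, SE 0.45, adjusted p = 0.0396). Neither gene's groups overlapped (11.5% of tested genes were lower without overlap), wt_1 was the highest library in both, and 9.29% of genes were called in that fit. Without wt_1 the changes were -2.04 for Ptgs1 (adjusted p = 0.0204), -1.68 for Hpgds (0.0318) and -1.35 for Ltc4s (0.0366). Both unfiltered calls were lost without any 1 of the 3 ko_igg libraries (0.103, 0.106 and 0.0763 for Hpgds, 0.0834, 0.146 and 0.0880 for Ltc4s), with wt_3 left out (0.0765 and 0.104), with core scaling and by edgeR; Hpgds also lost it without wt_4 (0.0713) and Ltc4s without wt_2 (0.0557). Alox5ap was at 393, 161.3, 234 and 176 in wt and at 445, 361 and 217 in ko_igg, overlapping (0.53, adjusted p = 0.355).

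After the anti-Ly6g antibody, ko_ly6g against ko_igg, 0 enzymes were called by limma, with or without the filter, where 0% of genes were called (127 at an unadjusted p under 0.05; edgeR 0 and 44). Ptgs1 was at 55.5, 181 and 114 in ko_ly6g, a change of 0.44 with an interval of -0.65 to 1.52. Hpgds was at 9.55, 31.9 and 32.04, Ltc4s at 20.3, 28.2 and 19.8 and Alox5ap at 159, 205 and 291 (interval of its change -1.45 to 0.20). All 4 overlapped ko_igg. Against wt, where 4.34% of genes were called, Ptgs1 was at -1.81 (SE 0.46, adjusted p = 0.0533; 0.0486 without the filter) and Alox5ap at -0.10 (0.898). In the fit without the filter, where 4.58% were called, Hpgds was at -1.75 (0.0910) and Ltc4s was called at -1.94 (SE 0.45, 0.0372), a call lost without any of the 3 ko_ly6g libraries (0.112, 0.0862 and 0.112), without wt_2 (0.0578) or wt_3 (0.109), with core scaling (-0.90, 0.171), by edgeR (0.124, without ko_igg_16 and wt_3) and with only the groups compared (0.0818). The summed neutrophil markers were 77.6 to 229 in wt, 334 to 1007 in ko_igg and 272 to 1617 in ko_ly6g, and Hdc, the listed mast cell and basophil marker, was at 1.83 to 11.9, 82.0 to 114 and 30.7 to 56.4. In the same order of groups, 4 of 9 dendritic cell markers summed to 693 to 1750, 297 to 354 and 231 to 784, the T cell markers Lck and Thy1 to 36.7 to 48.2, 150.0 to 230 and 93.3 to 174, and platelet Gp1bb was at 185 to 429, 706 to 1161 and 544 to 1224. The part of these markers in the result was not tested.

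**Figure D4:**
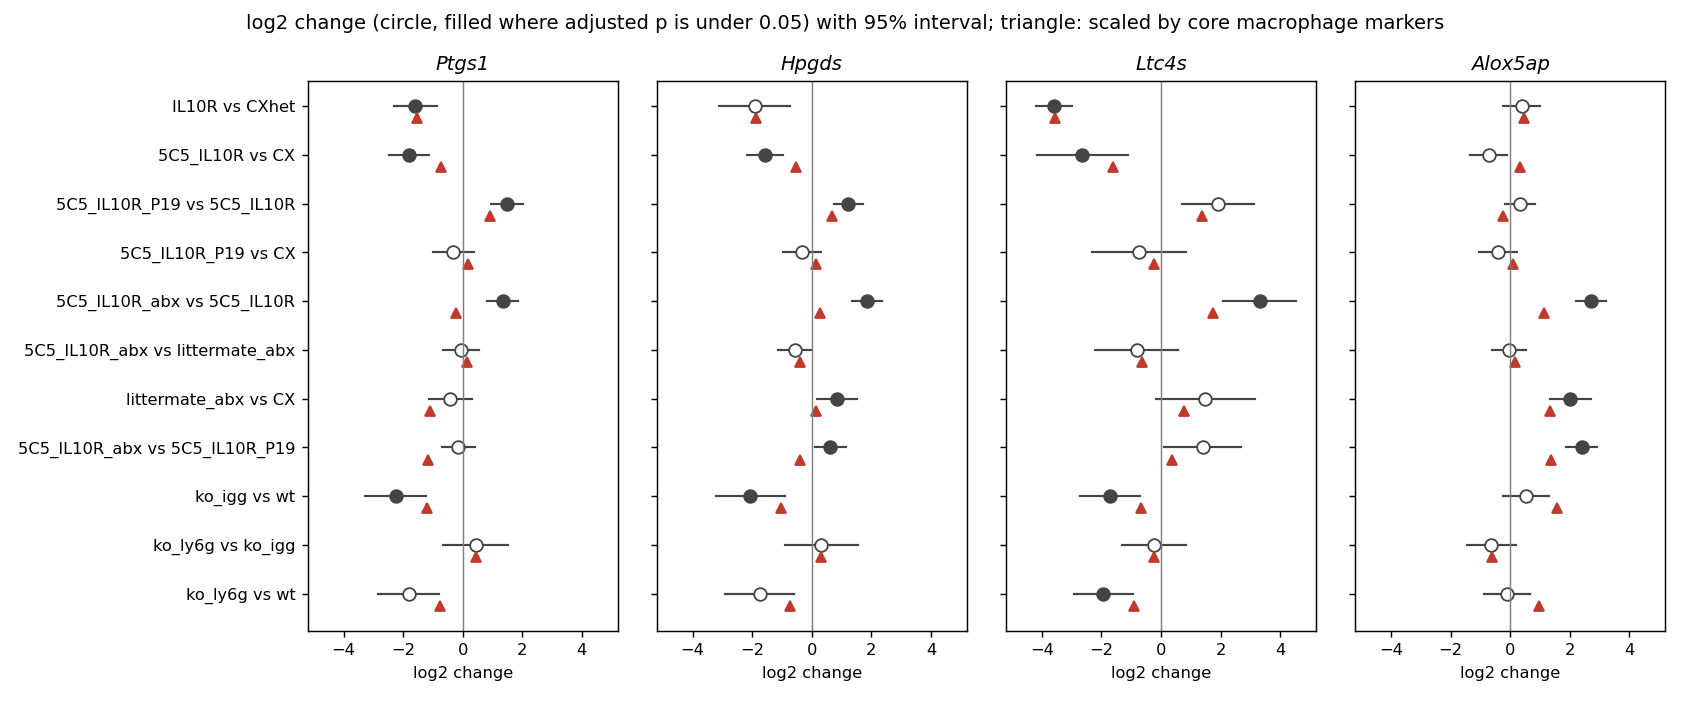
log2 change of each enzyme (circle, filled where the limma adjusted p was under 0.05; bar, 95% interval) in 11 comparisons, the first group minus the second, with the core-scaled change as a triangle. Core scaling left IL10R against CXhet nearly in place, and in 5C5_IL10R_abx against 5C5_IL10R it took Ptgs1 from 1.34 to -0.24 and Alox5ap from 2.72 to 1.14.

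Among the other genes of both branches, Alox5, the lipoxygenase that Alox5ap serves, moved with Ltc4s. In the first table it was at 105.6 to 176 in CXhet and at 6.48 to 11.8 in IL10R, and fell by 3.86 (SE 0.40, limma adjusted p = 0.00122; kept in 13 of 13 alternatives), while Alox5ap was not called. In the rescue table Alox5 was at 40.4 and 49.5 in CX, 3.90 to 29.0 in 5C5_IL10R, 23.5 to 38.4 in 5C5_IL10R_P19, 109.5 to 162.8 in 5C5_IL10R_abx and 137 to 227 in the littermates. It fell by 1.91 in 5C5_IL10R against CX (adjusted p = 0.0162), a call lost without CX_1 or CX_3 and with core scaling (-0.91). Alox5 passed the filter on low values (40.4) on the mean of all 18 libraries. Its mean was 13.7 in 5C5_IL10R and 45.0 in CX, against 140 in 5C5_IL10R_abx and 183 in the littermates. It was not tested in the fit with only 5C5_IL10R and CX. With antibiotics it rose by 3.52 in 5C5_IL10R_abx (3.06e-07; 2.00 with core scaling, 5.00e-05). In the third table it was under the filter, at 22.0 to 62.5 in wt, 3.23 to 6.83 in ko_igg and 3.05 to 6.14 in ko_ly6g.

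Of 15 genes listed for prostanoid synthesis, members included, 9 were tested in the first table, where 1 rose and 1 fell (median change -0.27 against 0.00 over all genes). Over all genes there, 4.57% rose and 4.12% fell. Ptgs2, the inducible cyclooxygenase, rose by 1.88 (limma adjusted p = 0.0193), from 284.6 ± 162 to 993 ± 345, while Ptgs1 fell, and its call was lost without CXhet 2 (1.67) or CXhet 3 (1.66). In the third table Ptgs2 was at 104 to 115 in ko_igg, 20.2 to 95.2 in wt and 22.1 to 119 in ko_ly6g. It was higher in ko_igg than in wt without overlap, as in 17.1% of tested genes, and was not called. Of 8 tested in that comparison 0 rose and 1 fell, Ptgs1, beside 5.73% and 3.46% of all genes. In the rescue table, Ptgs2 was not called in 5C5_IL10R against CX (0.14, limma adjusted p = 0.891), where 0 of 9 rose and 3 fell, beside 3.87% and 6.03% of all genes. The 3 were Ptgs1, Hpgds and Tbxas1. Tbxas1 fell by 0.82 there (0.00747), but was at 0.24 with core scaling, and its call was lost without CX_1 or CX_3. Against 5C5_IL10R it rose by 0.75 in 5C5_IL10R_P19 (0.0111, but 0.17 and not called with core scaling) together with Ptgs1 and Hpgds. So 3 of 9 rose and 0 fell, where 1.92% of all genes rose and 0.514% fell. With antibiotics 4 of 9 rose and 3 fell (median 0.21 against 0.03), where 30.6% of all genes rose and 27.3% fell. With core scaling none of the 4 risers kept its call, at -0.24 for Ptgs1, 0.28 for Hpgds, 0.02 for Tbxas1 and -0.57 for Fam213b, the last then called lower (adjusted p = 0.0198). Without it, Tbxas1 rose by 1.61 (2.45e-08), while Akr1b8, an aldo-keto reductase, was at -2.15 (1.88e-08) and Cbr1, a carbonyl reductase, at -1.42 (4.50e-07). Epithelial markers made up 1.55% to 1.91% of all signal in 5C5_IL10R and 0.286% to 0.480% in 5C5_IL10R_abx. Their part in the falls of Akr1b8 and Cbr1 was not tested.

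Of 11 genes listed for leukotriene synthesis, members included, 10 were tested in the first table, where 4.57% of all genes rose and 4.12% fell. Of these 10, 1 rose and 3 fell (median -0.40), Alox5 and Ltc4s among the latter. The third was Dpep1, a dipeptidase that cleaves leukotriene D4, at -1.63 (limma adjusted p = 0.0486), and the riser was Dpep2, a related dipeptidase, at 1.65 (0.0262); Dpep1 kept its call in 6 of 13 alternatives, and Dpep2 lost it without any single CXhet library. In 5C5_IL10R against CX 0 of 9 rose and 2 fell, Alox5 and Ltc4s (median -0.48), beside 3.87% and 6.03% of all genes. With antibiotics, in 5C5_IL10R_abx against 5C5_IL10R, 5 of 9 rose and 4 fell (median 0.78), again beside 57.8% of all genes called. Mgst3, a microsomal glutathione transferase related to Ltc4s, was at -2.04 (1.57e-07, and -3.62 with core scaling), opposite in sign to Ltc4s. The part of the lower epithelial markers in this fall was not tested. Cotl1, a 5-lipoxygenase binding protein, rose by 1.10 (7.00e-06) but was at -0.49 with core scaling. In 5C5_IL10R_P19 against 5C5_IL10R, 0 of 9 were called, where 2.43% of all genes were. In ko_igg against wt 0 rose and 1 of 7 fell, Mgst3, at -0.86 (0.0407), where 9.19% of all genes were called. Mgst3 kept that call in 5 of 14 alternatives and was at 0.19 with core scaling.

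Downstream, Hpgd, the dehydrogenase that inactivates prostaglandins, was at 478 ± 78.6 in CXhet and 90.2 ± 67.9 in IL10R, and fell by 2.80 (limma adjusted p = 0.0271). Of 6 genes tested there for export and breakdown, 2 fell, Hpgd and the carbonyl reductase gene Cbr3, and 0 rose. Over all genes, 4.12% fell and 4.57% rose. The Hpgd call was lost without CXhet 1, 2 or 3 or IL10R 3 and with core scaling (-2.75, 0.0642). Hpgd was also called lower in ko_igg (30.5 to 174) than in wt (247 to 380), a call kept in 7 of 14 alternatives. Untreated 5C5_IL10R (36.4 to 231) had no Hpgd call against CX (270 to 295). In 5C5_IL10R_abx (190 to 543) Hpgd was called higher than in 5C5_IL10R, a call kept in 12 of 16 alternatives. With core scaling that change was -0.33 and not called. Of 18 receptors for prostanoids and leukotrienes, 3 are listed and 2 tested in the rescue table. Ptger4, a prostaglandin E2 receptor, rose by 1.63 in 5C5_IL10R_abx against 5C5_IL10R (3.40e-07), from 66.0 ± 15.6 to 206 ± 43.1, and was at 0.05 with core scaling; Pparg, a nuclear receptor that binds prostaglandin D2 products, was at -1.22 (6.42e-04). Upstream, among 17 tested genes of arachidonate supply and reuptake, 5 rose and 8 fell in that comparison (median -0.31), where 57.8% of all genes were called. Of the risers Pla2g15, a lysosomal phospholipase, rose by 2.17 (2.22e-08) and stayed called with core scaling (0.58); Abhd12 was at 0.08 with it, and Pla2g7 (-0.76), Daglb (-0.99) and Lpcat2 (-0.81) turned to lower calls. Among the genes that fell, Pla2g5, a secreted phospholipase, was at -4.07 and Mboat1, a lysophospholipid acyltransferase, at -1.80. The part of the lower epithelial markers in these falls was not tested. Among 21 of these tested in the first table, 2 rose and 1 fell, where 4.57% of all genes rose and 4.12% fell. The risers were the phospholipase Pla2g16 (1.58, limma adjusted p = 0.0107) and the acyl-CoA synthetase Acsl1 (2.01, 0.0124), both calls lost without CXhet 2. Acsl3 fell (-1.29, 0.0114), a call kept in 10 of 13 alternatives.

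**Figure D5:**
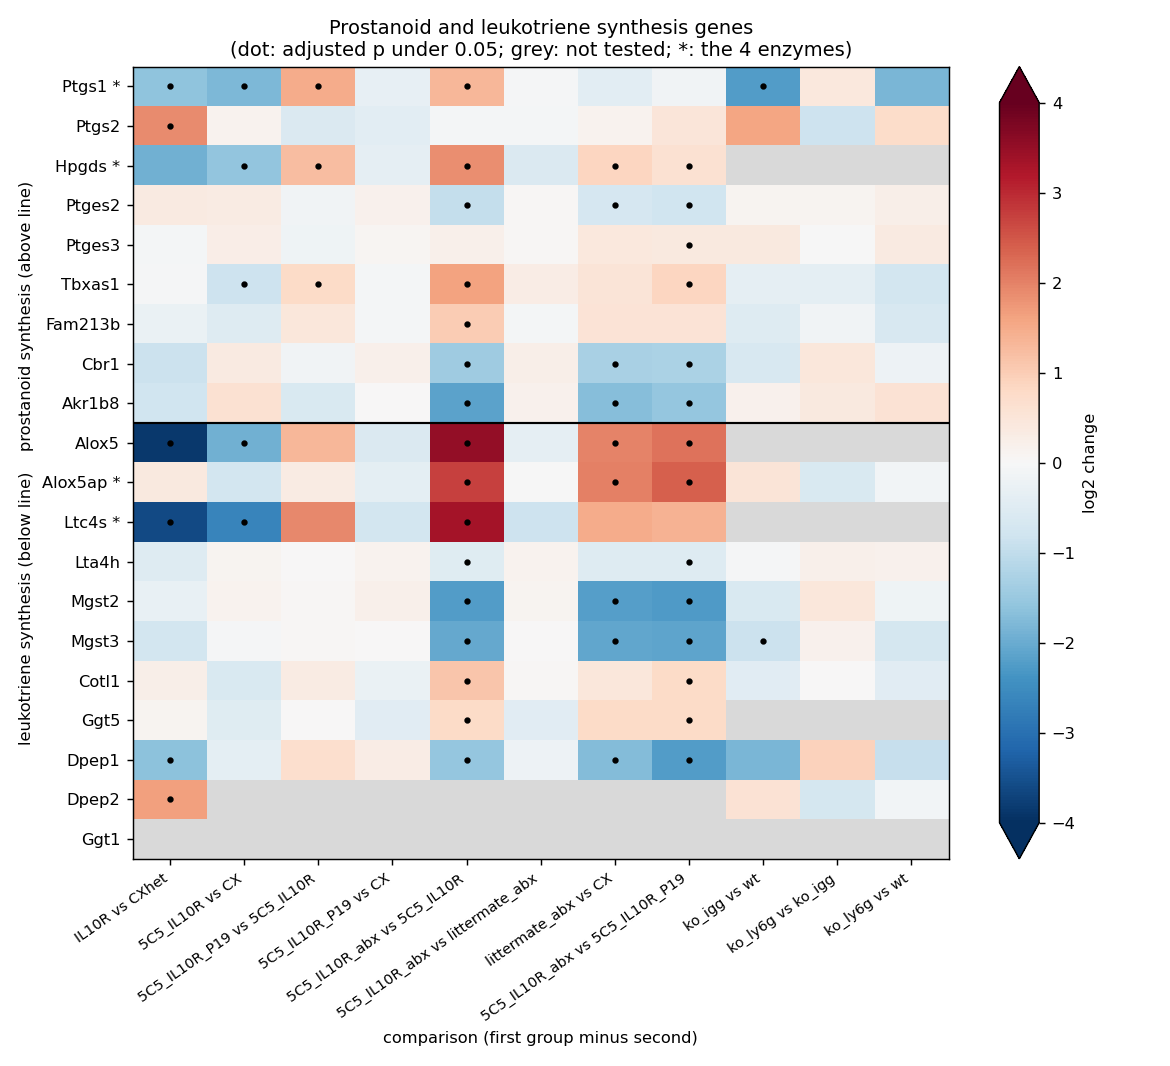
log2 change (colour) of the listed genes of prostanoid and leukotriene synthesis in 11 comparisons; dots mark a limma adjusted p under 0.05, grey cells were not tested, and asterisks mark the 4 enzymes. With antibiotics (5C5_IL10R_abx against 5C5_IL10R) Alox5, Ltc4s and Alox5ap were at 3.52, 3.31 and 2.72, while Mgst3 was at -2.04 and Akr1b8 at -2.15. Epithelial markers were also lower there, and their part in the falls was not tested. The signs of Ptgs1 and, against CX, Tbxas1 turn with core scaling.

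Over the 18 rescue libraries, the genes whose log2 values followed each enzyme most closely differed between the 4 genes. For Hpgds they were Csf1r, the receptor that macrophages need for survival (Pearson r = 0.98; at 945 to 1336 in 5C5_IL10R and 4666 to 5179 in the treated littermates), Kctd12 (0.97), C3ar1 (0.97), Eid1 (0.97) and Wipf1 (0.96). Ltc4s went with Fcrls (0.97), Folr2, a folate receptor of resident macrophages (0.97), Pf4 (0.96), Rbpj (0.96) and Slco2b1 (0.95). For Alox5ap they were Cfp, complement properdin (0.98), Il10rb, the other chain of the interleukin-10 receptor (0.98), Cyth4 (0.97), Map3k8 (0.97) and Mafg (0.97). Ptgs1 had lower values, led by Npl (0.91), Ldb1 (0.89), Vkorc1 (0.89), Cd81 (0.88) and Rcbtb2 (0.88). These correlations describe libraries that share groups and scaling factors. Between the enzymes, Ptgs1 and Ltc4s had r = 0.81 over all libraries and 0.75 after the group means were removed. Ltc4s and Alox5ap had 0.75 and -0.03, Ptgs1 and Alox5ap 0.42 and 0.00, Hpgds and Ltc4s 0.89 and 0.39, Hpgds and Alox5ap 0.81 and 0.44, and Ptgs1 and Hpgds 0.78 and 0.46. The within-group values were not alike in the other tables: for Ptgs1 and Alox5ap they were -0.84 over the 6 libraries of the first table and 0.74 over the 10 of the neutrophil depletion table, and for Ltc4s and Alox5ap 0.04 and 0.63.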

How the data were processed

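RNA was measured in 34 libraries of 10 groups in 3 tables. Per the labels' protocols, messenger RNA from sorted cells was captured on oligo(dT) beads and amplified by in-vitro transcription. The submitters' processing notes name bcl2fastq, HISAT 0.1.6, HOMER and mm9, with roles not given. The authors deposited normalized signal values, and in 32 of the 34 libraries every value is a whole number of reads divided by 1 factor (tolerance 0.01). Rows without a gene name were left out. Values were tested as log2(value + pseudocount), the pseudocount being 1.31, 0.997 and 0.982 in the first, rescue and neutrophil depletion tables, after dropping the lowest 25% of genes by mean (under 53.2, 40.4 and 68.0). This left 6766, 6612 and 6594 of 9022, 8816 and 8793 genes. limma 3.58.1 (R 4.3.3; trend, robust, all groups of a table in 1 fit) gave Benjamini-Hochberg adjusted p-values over all genes tested, two-sided. Count tests with edgeR 4.0.16 on recovered reads were an alternative and not the main test, because the deposited values are not counts. Other alternatives were TMM or equal-total scaling, scaling by core macrophage markers, a pseudocount of 5, no filter, only the groups compared, a replicate block and leaving out each library. Among pairs of libraries of the same group with recovered reads, none agreed within sampling noise. The enzymes, lists and markers were chosen with earlier results of these data known. Named genes were the 4 enzymes, called genes of each list by smallest adjusted p (at most 4 per list and comparison), each list's gene with the highest mean, checks of Il10ra, Il23a and Csf1r, and the 5 genes nearest each enzyme by Pearson r. Ptgs2 in the rescue and neutrophil depletion tables, and Alox5 and Hpgd where not called, were followed after their values were seen.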

Additional observations from a re-analysis of the deposited data

How the results depend on the processing

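The direction of most of the enzymes' changes was kept under the alternatives run, and their calls were kept less often. Without 1 library at a time, the number of enzymes called was 1 to 3 for IL10R against CXhet (main 2), 0 to 4 for 5C5_IL10R against CX (main 3), 1 to 3 for 5C5_IL10R_P19 against 5C5_IL10R (main 2), 4 to 4 for 5C5_IL10R_abx against 5C5_IL10R (main 4), 1 to 2 for the treated littermates against CX (main 2) and for 5C5_IL10R_abx against 5C5_IL10R_P19 (main 2), 0 to 1 for the interaction (main 0) and for ko_igg against wt (main 1), and 0 to 0 in the other comparisons (main 0). TMM and equal-total scaling each gave 1 in the littermates against CX and 1 in 5C5_IL10R_abx against 5C5_IL10R_P19. Core scaling gave 1 in 5C5_IL10R against CX, 2 in 5C5_IL10R_abx against 5C5_IL10R and 0 in ko_igg against wt, where edgeR also gave 0 (it leaves out 2 libraries there) and the fit without the filter, which tests 4 enzymes in place of 2, gave 3; in ko_ly6g against wt that fit gave 2. Signs turned with core scaling, whose construction lowers every gene of a library rich in core markers, for Alox5ap in 5C5_IL10R against CX (0.34), 5C5_IL10R_P19 against 5C5_IL10R (-0.25), the interaction (0.19) and ko_ly6g against wt (0.96), for Ptgs1 in 5C5_IL10R_abx against 5C5_IL10R (-0.24), for Hpgds in 5C5_IL10R_abx against 5C5_IL10R_P19 (-0.38), for Ptgs1 (0.17), Hpgds (0.14) and Alox5ap (0.088) in 5C5_IL10R_P19 against CX, and for Ptgs1 (0.13) and Alox5ap (0.15) in 5C5_IL10R_abx against the littermates. Leaving out a library turned the sign of uncalled changes of Ptgs1 (-0.18 to 0.021) and Alox5ap (-0.19 to 0.12) in 5C5_IL10R_abx against the littermates and of Alox5ap in ko_ly6g against wt (-0.32 to 0.17); the cause was not tested. In the first table it is undecided whether the replicate numbers pair the libraries. Libraries of the same number had r of -0.058, 0.151 and 0.354. CXhet 2 and CXhet 3 were each closest to the IL10R library of their own number, while CXhet 1 was closest to IL10R 2 (0.149). The replicate block gave 3 enzymes called and 808 genes in place of 588, Hpgds being called at a limma adjusted p of 0.0180. For the other tables no paired analysis was possible, because their groups share no replicate numbers.

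Counts over all genes moved by more than 1.5 times in 5C5_IL10R against CX (655 in the main fit, 1080 with only these groups, 5439 with core scaling, 20 to 747 without 1 library), 5C5_IL10R_P19 against 5C5_IL10R (127 higher and 34 lower, 287 in all by edgeR, 3421 with core scaling, 17 to 380), 5C5_IL10R_abx against 5C5_IL10R (3823, 5949 with core scaling), 5C5_IL10R_abx against 5C5_IL10R_P19 (3191, 5052 with core scaling), ko_igg against wt (606, 56 by edgeR, 235 with core scaling, 205 to 1046), ko_ly6g against wt (286, 56 by edgeR, 123 with core scaling, 91 with only these groups, 103 to 494), the interaction (7, 24 by edgeR, 1945 with core scaling, 0 with equal totals, 16 with only the groups compared, 0 to 73), the littermates against CX (2250, 1325 to 2072), 5C5_IL10R_P19 against CX (2, 6 with only these groups, 0 to 2), 5C5_IL10R_abx against the littermates (2, 2 to 385) and IL10R against CXhet (588, 201 to 592). With equal totals the higher and lower calls were 388 and 331 in place of 256 and 399 in 5C5_IL10R against CX, 1522 and 2419 in place of 2020 and 1803 in 5C5_IL10R_abx against 5C5_IL10R, 776 and 1443 in place of 1094 and 1156 in the littermates against CX, and 1252 and 1992 in place of 1707 and 1484 in 5C5_IL10R_abx against 5C5_IL10R_P19; with core scaling they were 119 and 5830 in 5C5_IL10R_abx against 5C5_IL10R, 130 and 4922 in 5C5_IL10R_abx against 5C5_IL10R_P19, 128 and 2737 in the littermates against CX, 28 and 3393 in 5C5_IL10R_P19 against 5C5_IL10R, 1 and 1 in 5C5_IL10R_abx against the littermates, and the other way in 5C5_IL10R against CX (5413 and 26), the interaction (1943 and 2), ko_igg against wt (226 and 9) and ko_ly6g against wt (121 and 2).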
